A study of Homo sapiens with 4 samples.

Results

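The replication-dependent histone genes were followed in 4 arrays of prostate cancer cells. They encode the linker histone H1 and the core histones H2A, H2B, H3 and H4 that package newly copied DNA, and lie in clusters known by the older symbols HIST1H, HIST2H, HIST3H and HIST4H. All probe sets whose single annotated gene carries such a symbol were taken, whatever their values, and probe sets annotated to several genes were left out. This gave 59 genes of the 18417 measured: 6 of H1, 14 of H2A, 17 of H2B, 9 of H3 and 13 of H4. By cluster, 49 were HIST1 genes, 6 HIST2, 3 HIST3 and 1 HIST4. One of them, H2BC19P, is a pseudogene. Another 20 probe sets with a histone symbol among several were not used, so the clusters are described only in part.

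The arrays came from a study of PSF, an RNA-binding protein encoded by SFPQ that takes part in transcription and splicing, in cells that model castration-resistant prostate cancer. There was 1 array each for 4 groups. LNCaP, an androgen-responsive prostate cancer line, was kept for 24 h in 2.5% charcoal-stripped serum without phenol red. LTAD, the subline selected from LNCaP by prolonged androgen withdrawal, was grown with 10% of such serum and was read untransfected, after a control siRNA (siControl) and after an siRNA against PSF (siPSF). LNCaP and LTAD thus differed in serum concentration as well as in the selection, and both are single lines. The time from transfection to harvest was not given in the sources used here. With 1 array a group there is no replicate, so no test, error or p-value is given, and each difference below is between single arrays.

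Replication-dependent histone messages accumulate in S phase, when the cell needs histones for copied chromatin, and are removed when DNA synthesis stops. As a group they are the known class of animal messages that end in a conserved stem-loop rather than a poly(A) tail. Which end the messages of each member had in these cells was not examined. NPAT at the histone locus body promotes their transcription, the stem-loop binding protein SLBP and the U7 small nuclear ribonucleoprotein direct the cut that forms the end, and oligouridylation with the exonuclease ERI1 takes part in decay. The genes have no introns, and members of a class encode nearly the same protein, so their coding sequences are close copies. A probe set can therefore read more than the gene it is named for, and how far each did so was not tested. The arrays were labelled with a whole-transcript kit, which does not depend on a poly(A) tail.

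Promoters are shown for some of the members on which the comparisons below turn. RefSeq promoters of assembly GRCh38.p14, from 250 bases before to 50 after the start, were available for 53 of the 59 genes. H3C11 and H4C3, which are among the members with the widest gaps below, were not among them. The 4 strings of letters below were searched on both strands, and none of them contains another. They were the TATA hexamer TATAAA and, as the CCAAT box, the pentamer of that name. The other pair were the octamer ATTTGCAT, the sequence bound by POU2F1, and the H1 box AAACACA. In the sequences, capitals mark a match on either strand. The first 2 lie between the starts of an H2A gene and an H2B gene transcribed away from each other, at chr6:27814778-27815021 and chr1:149886683-149886917, both on the plus strand. The others are the 150 bases before the start: H1-5 at chr6:27867589-27867738 on the minus strand, H3C1 at chr6:26020301-26020450 on the plus strand and H4C8 at chr6:26285535-26285684 on the minus strand.
H2AC14 to H2BC14: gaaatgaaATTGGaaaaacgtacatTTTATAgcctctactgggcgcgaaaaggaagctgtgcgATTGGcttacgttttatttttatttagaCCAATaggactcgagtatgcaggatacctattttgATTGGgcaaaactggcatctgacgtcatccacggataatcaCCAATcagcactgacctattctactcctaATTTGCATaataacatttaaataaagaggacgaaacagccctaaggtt
H2BC21 to H2AC20: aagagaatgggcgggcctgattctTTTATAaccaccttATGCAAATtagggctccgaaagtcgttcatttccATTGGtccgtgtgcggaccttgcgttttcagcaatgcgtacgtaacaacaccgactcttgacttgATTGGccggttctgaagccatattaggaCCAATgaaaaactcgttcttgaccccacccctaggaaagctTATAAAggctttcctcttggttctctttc
H1-5: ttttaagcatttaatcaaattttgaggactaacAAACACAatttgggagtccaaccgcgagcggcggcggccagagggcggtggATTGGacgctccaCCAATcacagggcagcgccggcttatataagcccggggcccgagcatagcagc
H3C1: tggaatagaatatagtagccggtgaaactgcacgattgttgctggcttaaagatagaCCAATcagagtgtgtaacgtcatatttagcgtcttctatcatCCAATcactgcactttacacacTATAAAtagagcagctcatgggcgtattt
H4C8: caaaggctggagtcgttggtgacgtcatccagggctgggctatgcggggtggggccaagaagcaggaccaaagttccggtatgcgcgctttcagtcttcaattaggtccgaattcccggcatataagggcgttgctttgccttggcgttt

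The promoter letters differed by class. The octamer was in 10 of 13 H2A promoters and 13 of 16 H2B promoters, and in 0 of the 6 H1, 7 H3 and 11 H4 promoters. Over the members it was present in 43.4%, against 2.19% of the 27305 genes with a promoter. The promoters searched were longer than either head-to-head stretch printed above, so a match there was counted for both genes. In both stretches the only octamer lay nearer the H2B start. The H2A count and the percentage over members thus include shared matches, and how many other pairs shared a match was not counted. The H1 box was in 6 of 6 H1 promoters and 1 of 13 H2A promoters, that of H2AC20, which made 13.2% of the members against 6.94% of all genes. The CCAAT pentamer was in every H1, H2A, H2B and H3 promoter read and in 3 of 11 H4 promoters, which made 84.9% of the members against 39.7% of all genes. The TATA hexamer was in 66% of the members against 14% of all genes. Matches were shared here too: in the stretch of H2AC14 and H2BC14, the only TATA hexamer lay by the H2AC14 start. H2AC14 and H2BC14 shared 1 intergenic stretch with an octamer and several CCAAT pentamers, whereas the stretch shown for H4C8 held none of the 4 strings. A match describes the letters and was not tested as a binding site.

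The deposited log2 levels were not on one scale, with array medians of 6.91 for LNCaP, 7.20 for LTAD, 5.98 for siControl and 6.04 for siPSF, and were quantile-normalized over the 4 arrays before use. A probe set was kept if it reached 7.21, the median of all single-symbol values, in at least 1 array, which kept 10589 of 19253. The siRNA target SFPQ read 10.83 in LNCaP, 10.82 in LTAD, 11.23 in siControl and 9.87 in siPSF, 2.58-fold lower with siPSF than with siControl. Of 10 prostate luminal markers 6 were measured, and all 6 reached 7.21 in each array except that 5 did in siPSF. KLK3, which encodes prostate-specific antigen, read 12.89, 11.06, 7.47 and 7.11 in LNCaP, LTAD, siControl and siPSF. The other 5 measured luminal markers were above 0 in LTAD minus LNCaP, from 0.04 for KLK2 to 0.59 for ACP3, and the list median was 0.27 there, -0.84 in siControl minus LTAD and -0.12 in siPSF minus siControl. Of 12 measured stromal, endothelial and immune markers, 2 reached that value in LNCaP, siControl and siPSF and 3 in LTAD. Their summed level on the linear scale was 976 in LNCaP, 1355 in LTAD, 870 in siControl and 908 in siPSF. The leukocyte marker PTPRC (3.40 to 3.62) and the endothelial marker PECAM1 (4.39 to 4.78) stayed under it, while LUM, a stromal proteoglycan gene, read 3.78, 8.80, 3.21 and 2.97. LUM stood apart in the untransfected LTAD array, which enters the first 2 comparisons below, and its part in them was not tested. In bulk RNA, fewer cells in S phase and less histone message per cell cannot be told apart.

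Of the 59 histone genes, H4C14 and H4C15 had the same value in every array and were counted once. Of the resulting 58, 31 passed the filter: 3 of H1, 8 of H2A, 10 of H2B, 4 of H3 and 6 of H4. The 27 left out included H1-1, H1-3, the testis gene H1-6 and all HIST3 and HIST4 genes. The members just inside were H2AC4, whose highest array was 7.31, and H2BC17 at 7.48, and those just outside were H2AC12 at 7.08 and H2AC25 at 7.04. In all 4 arrays, 25 members reached the filter. Counts over the kept members do not speak for all members.

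**Figure D1:**
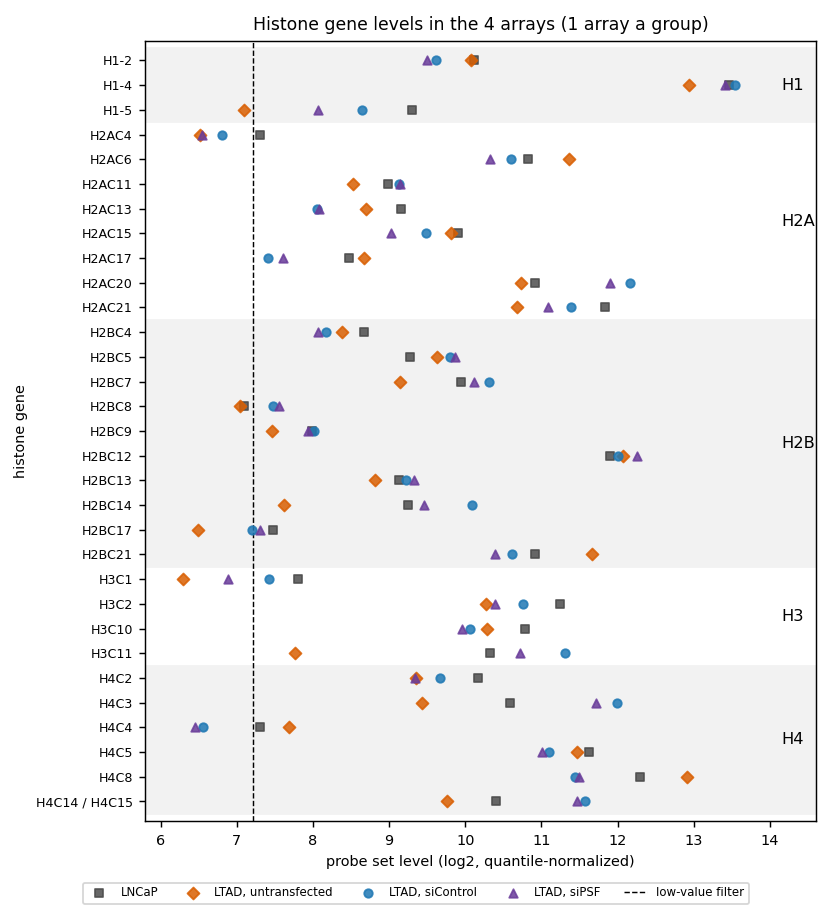
Each row is 1 kept histone gene, grouped by class, and each point its quantile-normalized log2 level in 1 array of LNCaP, untransfected LTAD, siControl LTAD or siPSF LTAD. The dashed line is the filter at 7.21, and levels are to be read along a row and not between rows. The LTAD point is lowest in 17 of the 31 rows and highest in 5. The siPSF point is lowest in 9 and the LNCaP point highest in 13. Such counts were not made over all kept probe sets, so they do not set the histone genes apart.

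The linker histone genes that passed differed in pattern. H1-5, a linker histone of dividing cells, read 9.30 in LNCaP, 7.10 in LTAD, 8.65 in siControl and 8.07 in siPSF. H1-4, a main somatic linker histone, read 13.46, 12.94, 13.54 and 13.41 in the same order. H1-2, which encodes another somatic subtype, read 10.12, 10.07, 9.62 and 9.50. LTAD was thus the lowest array for H1-5 and H1-4, and the transfected arrays were the lowest for H1-2.

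Among the H2A genes, which encode core histones that pair with H2B, H2AC21 read 11.84 in LNCaP, 10.68 in LTAD, 11.39 in siControl and 11.09 in siPSF. H2AC20, its neighbour in the HIST2 cluster, read 10.91, 10.73, 12.16 and 11.90. For both, LTAD was the lowest array, but only H2AC20 was above its LNCaP level in the transfected arrays. H2AC6 read 10.83, 11.36, 10.60 and 10.33, and H2AC17 read 8.48, 8.67, 7.41 and 7.61. These 2 had their highest level in LTAD. H2AC15 read 9.90, 9.81, 9.48 and 9.03 and was lowest in siPSF.

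Among the H2B genes, H2BC14 read 9.25 in LNCaP, 7.62 in LTAD, 10.09 in siControl and 9.46 in siPSF. H2BC7 read 9.95, 9.15, 10.31 and 10.12. Both were lowest in LTAD and highest in siControl. H2BC21, a HIST2 gene, read 10.91, 11.66, 10.61 and 10.39 and was highest in LTAD. H2BC12 read 11.90, 12.07, 12.00 and 12.25, and was lowest in LNCaP.

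All 4 kept H3 genes had a lower level in LTAD than in LNCaP. H3C11 read 10.32 in LNCaP, 7.76 in LTAD, 11.31 in siControl and 10.72 in siPSF, the widest spread of any kept member. H3C1 read 7.81, 6.29, 7.43 and 6.89, and H3C10 read 10.78, 10.28, 10.06 and 9.96. The H3C1 probe set was under the filter in LTAD and siPSF, so no fold is given for it in the comparisons that use those arrays.

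The H4 genes divided. H4C3 read 10.59 in LNCaP, 9.43 in LTAD, 11.99 in siControl and 11.72 in siPSF, and H4C14 and H4C15 read 10.41, 9.76, 11.57 and 11.47. These were lowest in LTAD. In contrast, H4C8 read 12.29, 12.91, 11.44 and 11.50, and H4C4 read 7.31, 7.68, 6.56 and 6.45, both highest in LTAD. H4C2 read 10.17, 9.36, 9.67 and 9.34, with LTAD and siPSF together at the low end. All of these genes encode histone H4.

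The first comparison set untransfected LTAD against LNCaP, which holds the long-term androgen withdrawal, the serum concentration and any difference between the cultures. Most kept histone genes were lower in LTAD, with the widest gaps in H3C11, H1-5 and H2BC14. Of 31 kept members, 24 were below 0 in LTAD minus LNCaP, against 49.5% of all kept probe sets. The median difference was -0.46 on the log2 scale, against 0.00 over all kept probe sets. At least 2-fold lower were 6 members, or 19.4%, against 3.47% of all kept probe sets, and 0 were at least 2-fold higher, against 2.22%.

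The 6 members came from all 5 classes. H3C11 was 5.89-fold lower in LTAD (-2.56), H2BC14 3.09-fold (-1.63), H2AC21 2.24-fold (-1.17) and H4C3 2.23-fold (-1.16). H1-5 (-2.20) and H3C1 (-1.52) were under the filter in LTAD, so their differences rest on a dim reading and no fold is given. Among the 26 members at or above the filter in both arrays the median was -0.38 and 4 were at least 2-fold lower, or 15.4% against 1.99% of all such probe sets. The class medians were -1.24 for H3, -0.52 for H1, -0.40 for H4, -0.32 for H2A and -0.30 for H2B. The members that stood highest in LTAD against LNCaP were H2BC21 at 0.75, H4C8 at 0.61 and H2AC6 at 0.53. On the deposited scale, where all kept probe sets had a median of 0.18, the histone median was -0.28. There 4 of 31 members were at least 2-fold lower, against 2.38% of all kept probe sets. With the siControl array standing for LTAD the median was -0.31 and 18 of 31 members were below 0, against 43.8%. Then 2 members, or 6.45%, were at least 2-fold lower, against 3.06% of all kept probe sets, and 3, or 9.68%, higher, against 2.72%. The count therefore depends on which LTAD array is used.

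The next comparison set siControl LTAD against untransfected LTAD, which holds the transfection and any difference between the cultures. It uses the same LTAD array as the comparison above with the sign turned, so the values are given side by side and no relation between them is drawn. The kept histone genes divided: H3C11, H4C3 and H2BC14 were much higher in siControl, and H4C8, H2AC17 and H2BC21 were lower. The median was 0.41, against 0.06 over all kept probe sets, and 12 of 31 members were below 0, against 45.0%. At least 2-fold higher were 8 members, or 25.8% against 6.32% of all kept probe sets, and at least 2-fold lower were 4, or 12.9% against 4.44%.

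H3C11 was 11.7-fold higher in siControl (3.55), H4C3 5.90-fold (2.56), H2BC14 5.56-fold (2.48) and H4C14 with H4C15 3.49-fold (1.80). H2AC20 was 2.68-fold higher (1.42) and H2BC7 2.23-fold (1.16), and H1-5 (1.56) and H3C1 (1.14) also passed, with LTAD under the filter. On the lower side were H4C8 at 2.77-fold (-1.47), H2AC17 at 2.40-fold (-1.26), H2BC21 at 2.08-fold (-1.06) and H4C4 (-1.12), whose siControl level was under the filter. H4 therefore had members at both ends, and its class median was -0.03, beside 0.81 for H3, 0.60 for H1, 0.42 for H2B and -0.02 for H2A. With both arrays at or above the filter, 6 of 25 members were higher, 24.0% against 4.23%, and 3 were lower, 12.0% against 2.93%.

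These directions depend in part on the scale. In the deposited values the median over all kept probe sets was -0.88 and that of the histone members -0.58. On that scale 4 of 31 members were at least 2-fold higher, against 0.652% of all kept probe sets, and 11 of 31 lower, against 39.9%. With each deposited array centred on its own median, 10 of 31 members were higher, against 12.3% of all kept probe sets, and 2 of 31 lower, against 2.95%. H3C1 was the 1 called member whose sign turned, from 1.14 to -0.05 in the deposited values, and the 4 that stayed at least 2-fold higher there were H3C11, H4C3, H2BC14 and H4C14 with H4C15.

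**Figure D2:**
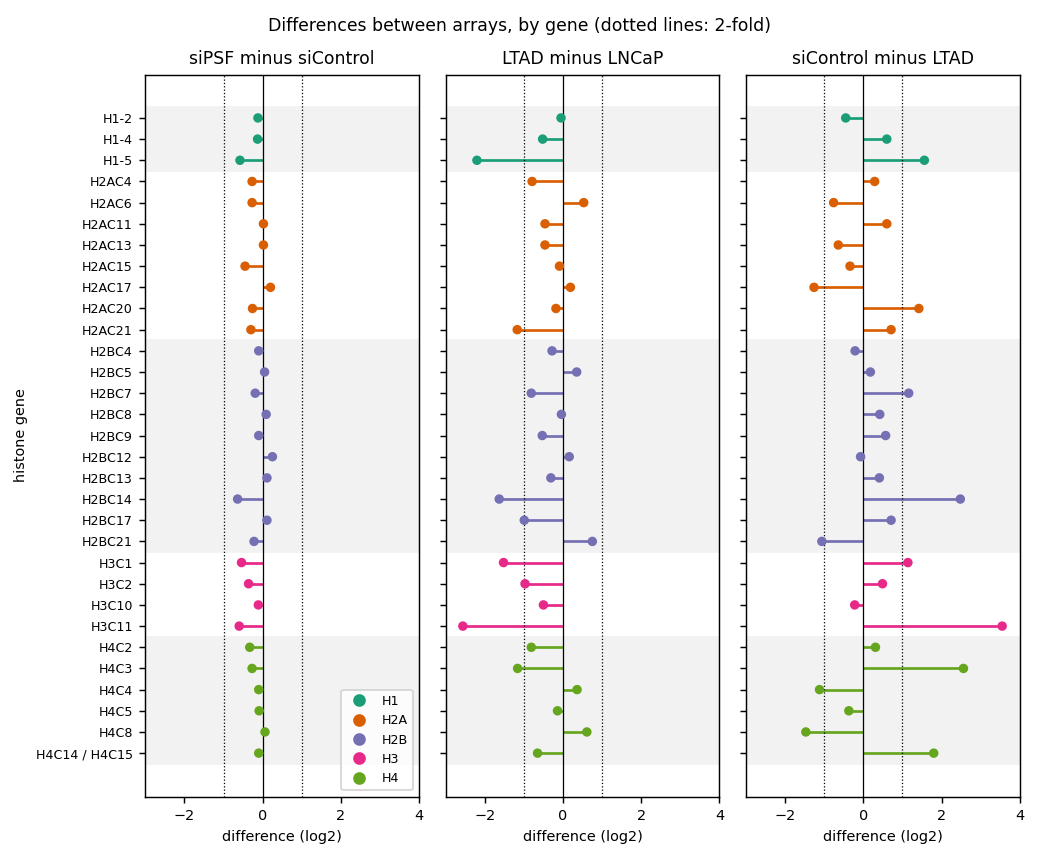
Each panel is 1 comparison and each row 1 kept histone gene coloured by class, with the log2 difference between 2 quantile-normalized arrays as a line from 0 to a point. Dotted lines mark 2-fold; no point passes them for siPSF minus siControl, 6 pass on the lower side for LTAD minus LNCaP, and 8 higher and 4 lower for siControl minus LTAD.

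The comparison the study was built on set siPSF against siControl in LTAD. No kept histone gene was 2-fold apart, and the largest gaps were lower levels of H2BC14, H3C11 and H1-5 with siPSF. The median was -0.12, against -0.01 over all kept probe sets, and 22 of 31 members were below 0, against 52.8%. At least 2-fold lower were 0 members, against 0.699% of all kept probe sets, and at least 2-fold higher 0, against 0.104%. The differences ran from -0.64 to 0.25.

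By gene, H2BC14 was 1.55-fold lower with siPSF (-0.64), H3C11 1.51-fold (-0.60), H1-5 1.49-fold (-0.58) and H2AC15 1.36-fold (-0.45). H3C1 differed by -0.54 with siPSF under the filter. Every H3 and H1 gene kept was below 0, with class medians of -0.45 and -0.13, while H2B split evenly at 5 below and 5 above 0, with a median of -0.02. The medians were -0.26 for H2A and -0.10 for H4, where H4C2 was lowest at -0.33 and H4C8 highest at 0.06. H2BC12 stood highest of all at 0.25 and H2AC17 next at 0.20. Without replicates it cannot be said whether gaps of this size exceed the spread between cultures. Against untransfected LTAD in place of siControl the median was 0.23 and 12 of 31 members were below 0, against 46.2%. Then 5 members, or 16.1%, were at least 2-fold higher, against 5.46% of all kept probe sets, and 5, or 16.1%, lower, against 5.28%. The sign of the median therefore rests on the choice of control array.

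The siPSF minus siControl and LTAD minus LNCaP differences have no array in common, though all 4 arrays were normalized together. Across the 31 kept members the differences had Pearson's r of 0.66 and Spearman's rho of 0.58, beside 0.06 and 0.15 across all 10589 kept probe sets and 0.29 and 0.34 across 38 DNA replication genes. Without the 2 members lowest in LTAD against LNCaP, r was 0.53 over 29 members. Below 0 in both were 19 of the 31, against 3092 of the 10589 kept probe sets and 33 of the 38 DNA replication genes. Since 24 and 22 of the 31 were below 0 in the comparisons singly, many would be below 0 in both without any relation. Of the 5 members lowest with siPSF (H2BC14, H3C11, H1-5, H3C1 and H2AC15), 4 were among the 10 lowest in LTAD against LNCaP, the exception being H2AC15. These are descriptions across genes, which are not independent replicates and may share cross-hybridising probes.

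**Figure D3:**
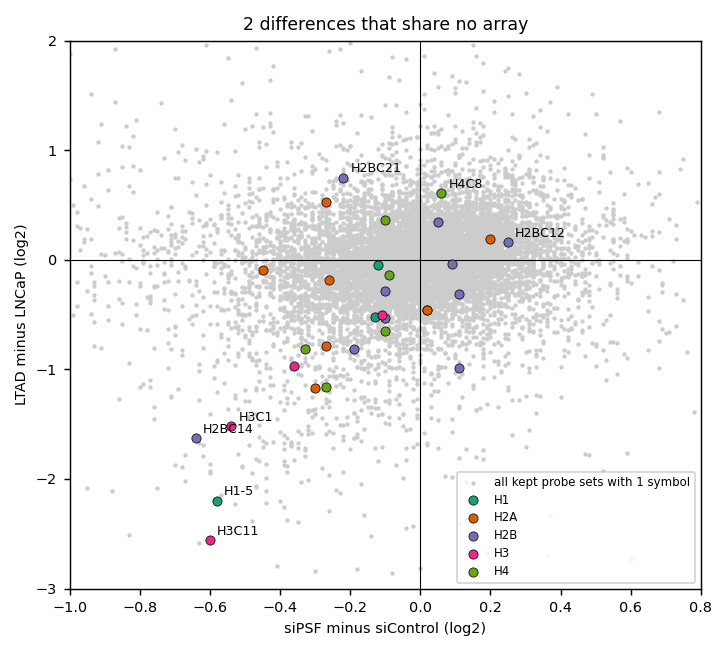
Each coloured point is 1 kept histone gene by class and each grey point 1 of all kept probe sets, with siPSF minus siControl on the x axis and LTAD minus LNCaP on the y axis, both in log2. H3C11, H1-5, H2BC14 and H3C1 lie at the lower left; H2AC11 and H2AC13 fall on the same point, and 173 grey probe sets lie outside the axes.

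H2A and H2B genes often lie head to head and share 1 intergenic promoter, like the stretches printed above. RefSeq starts placed members in 9 such pairs, and both genes passed the filter in 4. In siPSF minus siControl the sign was the same in all 4 pairs, in LTAD minus LNCaP in 1 and in siControl minus LTAD in 1. The siPSF differences of the 4 pairs were small, from -0.27 for H2AC6 to 0.20 for H2AC17, with H2AC13 at 0.02. In that comparison 22 of the 31 kept members were below 0, and how often unpaired members shared a sign was not counted. In the pair H2BC21 and H2AC20, LTAD minus LNCaP was 0.75 for H2BC21 and -0.18 for H2AC20, and siControl minus LTAD was -1.06 and 1.42. H2AC17 and H2BC17 likewise differed in sign, with 0.19 and -0.99 in LTAD minus LNCaP and -1.26 and 0.71 in siControl minus LTAD. H2BC17 read 6.49 in LTAD and 7.20 in siControl, under the filter, so its differences rest on dim readings. In both of these comparisons H2AC14 and H2BC14 had the same sign, at -1.90 and -1.63 and then 1.43 and 2.48. However, H2AC14 was under the filter in all 4 arrays.

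**Figure D4:**
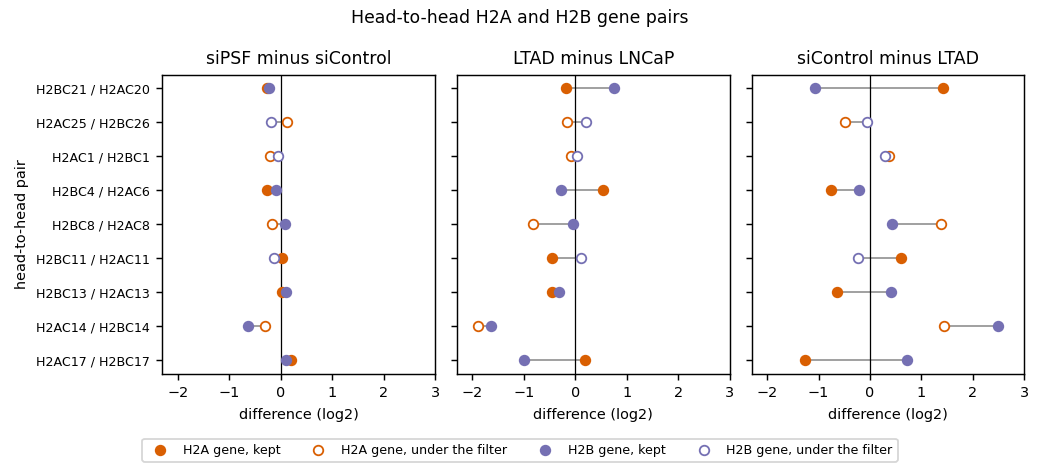
Each row is 1 head-to-head pair, with the H2A gene and the H2B gene as points joined by a line, and each panel 1 comparison in log2. Open points are genes under the filter in all 4 arrays. The points of H2BC21 and H2AC20 lie on opposite sides of 0 in the 2 panels that use the LTAD array.

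Genes listed here as factors that make and process histone messages were read on the same arrays. The part that each listed gene plays in histone messages was not examined. Of the 3' end processing and histone locus body list 23 of 25 measured genes were kept. At least 2-fold apart in LTAD against LNCaP or in siPSF against siControl were 0. Of all kept probe sets, 2.22% were higher and 3.47% lower in the first of these, and 0.104% and 0.699% in the second. The counts of 0 with siPSF in the lists below stand beside the same shares. The medians of this list were -0.19 and -0.02. SLBP read 9.17 in LNCaP, 8.72 in LTAD, 9.45 in siControl and 9.38 in siPSF, so its lowest array was LTAD. NPAT read 9.33, 8.83, 8.92 and 8.78. ZNF473, the U7-associated zinc finger protein, was lowest of the list in LTAD against LNCaP at -0.65, and CPSF1, a cleavage factor subunit, highest at 0.18. SNRPG, which encodes a ring protein of spliceosomal and U7 particles, was 4.39-fold higher in siControl than in LTAD. It was the 1 of 23 at least 2-fold higher there, 4.35% against 6.32% of all kept probe sets, and 0 were lower, with a list median of 0.36. With siPSF the ends of the list were NCBP1 at -0.31 and CPSF4 at 0.28.

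Among the translation and decay genes 21 of 22 were kept, and 0 were 2-fold apart in LTAD against LNCaP or with siPSF. The shares of all kept probe sets beside these counts are those given for the list above. LSM3, which encodes a subunit of the ring that binds oligouridylated ends, was 2.96-fold higher in siControl than in LTAD (1.57). ERI1 read 8.05, 7.17, 8.28 and 8.16 and differed by 1.11 in that comparison with LTAD under the filter. They were the 2 of 21 at least 2-fold higher there, 9.52% against 6.32% of all kept probe sets, with 0 lower. The list medians were -0.10 in LTAD against LNCaP, 0.19 in siControl against LTAD and -0.04 in siPSF against siControl.

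Of the transcription and S-phase entry genes 18 of 20 were kept, and 3 were at least 2-fold lower in LTAD than in LNCaP, 16.7% against 3.47% of all kept probe sets, with 0 higher. These were the cyclin genes CCNA2 at 2.32-fold and CCNE2 at 2.30-fold, and CDC25A at -1.43, the phosphatase that activates CDK2, with LTAD under the filter. In siControl against LTAD 3 were higher, 16.7% against 6.32%, and 0 lower, namely CDC25A at 1.59, CKS1B at 2.49-fold and ASF1A at 2.02-fold. With siPSF 0 were 2-fold apart, and the ends were HIRA at -0.29 and NFYC, a subunit of the factor that binds CCAAT, at 0.20. The medians were -0.17, 0.47 and -0.06.

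Of the histone variants outside these clusters, listed here as replication-independent, 10 were measured and 8 kept. In the 3 comparisons 0 were 2-fold apart. Of all kept probe sets, 2.22% were at least 2-fold higher and 3.47% lower in LTAD against LNCaP. The same shares were 6.32% and 4.44% in siControl against LTAD, and 0.104% and 0.699% in siPSF against siControl. With 8 genes, a count of 0 does not set the variants apart from such shares. The medians were -0.07 in LTAD against LNCaP, -0.17 in siControl against LTAD and 0.00 in siPSF against siControl. H2AX, the variant phosphorylated at DNA breaks, was lowest in LTAD against LNCaP at -0.69 and highest in siControl against LTAD at 0.99. Its message can end either in a stem-loop or in a poly(A) tail. MACROH2A2 was at -0.66 and 0.85 in the same comparisons, and with siPSF it was highest at 0.39 and H2AZ1 lowest at -0.27.

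All 20 chaperone and new-histone acetyltransferase genes were kept. In LTAD against LNCaP 5 were at least 2-fold lower, 25.0% against 3.47% of all kept probe sets, and 0 higher, with a median of -0.39. ASF1B, a chaperone that carries H3 with H4 to the replication fork, was 3.01-fold lower, HJURP, the centromeric histone chaperone, 3.32-fold lower, and MMS22L was at -1.99 with LTAD under the filter. In siControl against LTAD 4 of 20 were higher, against 6.32%, and 0 lower, with a median of 0.57 and MMS22L at 1.81 and ASF1B at 1.61. With siPSF 0 were 2-fold apart, and the median was -0.10, from MMS22L at -0.44 to NAP1L1 at 0.20.

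DNA replication genes, which are transcribed around the entry into S phase, had the largest median in size of these lists in each comparison. In LTAD against LNCaP 26 of 38 were at least 2-fold lower, 68.4% against 3.47% of all kept probe sets, and 0 higher, with a median of -1.27, and CDC6, which loads the replicative helicase, was 3.87-fold lower and MCM10 3.71-fold lower. In siControl against LTAD 21 were higher, 55.3% against 6.32%, and 1 lower, with a median of 1.21. CDC6 was 5.92-fold higher, RFC4 5.02-fold higher and RFC2 2.43-fold lower. With siPSF 0 were 2-fold apart, 34 of 38 were below 0 and the median was -0.26, with CDC6 at -0.60 and MCM6 at -0.55. In all 3 comparisons their median had the sign of the histone median and a larger size, and their part in the histone differences was not tested. The 11 reference genes had medians of 0.04, 0.05 and -0.02. With the siControl array standing for LTAD against LNCaP, the DNA replication median was -0.04. Then 1 of the 38 genes was at least 2-fold higher, against 2.72% of all kept probe sets, and 1 lower, against 3.06%. The chaperone list then had a median of -0.08 and the transcription and S-phase entry list 0.07, each with 0 genes 2-fold apart. The lower levels of these lists thus rest on the untransfected LTAD array.

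**Figure D5:**
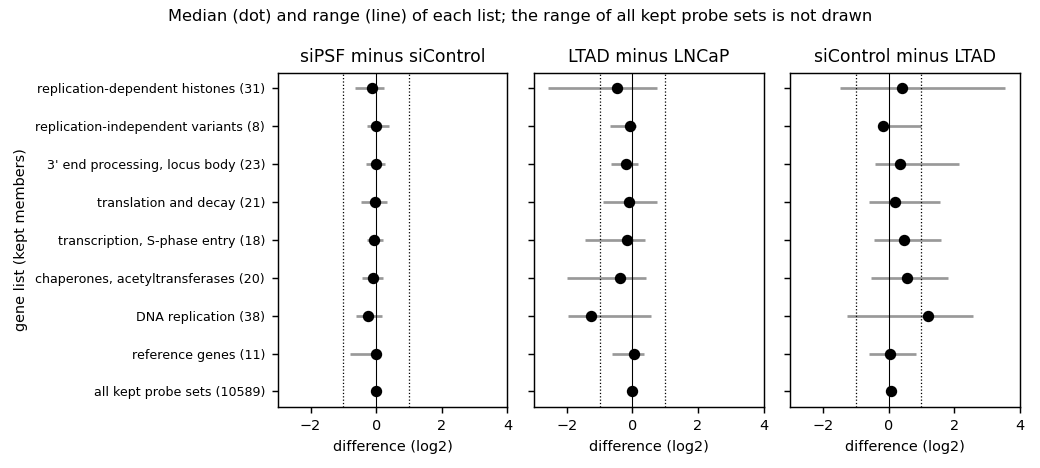
Each row is 1 gene list with its number of kept members, and each panel 1 comparison. Dots are medians and grey lines the range of the log2 differences, with dotted lines at 2-fold. The DNA replication medians of -1.27 and 1.21 lie past 2-fold, and those of the histone genes at -0.46 and 0.41 do not. The histone range is wider than the DNA replication range in every panel.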

How the data were processed

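RNA of 4 samples (1 a group, grouped by title) was read on Affymetrix whole-transcript arrays with 33297 probe sets. The deposited values were log2 levels; the submitters' processing notes name RMA and the software Affymetrix Expression Console, without versions. Neither a batch nor detection calls are given in the sources used here. The platform annotation gave 19460 probe sets 1 symbol, 1754 several and left 12083 unnamed; 19429 Entrez IDs matched RefSeq, GRCh38.p14.

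In Python 3.11.15 with numpy 2.4.6 and pandas 2.3.3, the 4 columns were quantile-normalized, 207 probe sets that repeated the same 4 values were dropped (which merged H4C14 with H4C15, a choice made after the values were seen), and probe sets reaching 7.21 log2 in at least 1 array were kept. Log2 differences of at least 2-fold were counted, and the calculation was tested on simulated data. No fold is given where the dimmer array is under 7.21. List genes used their probe set with the highest mean.

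The members and lists were chosen with earlier results of these data known. Named members are those 2-fold apart in a comparison and the extremes of each class; from each list, up to 2 extremes in each direction. SLBP, CCNE2, ASF1A and, in LTAD against LNCaP, ASF1B fall outside this and were named after their values were seen. Alternatives were other scalings, filters, folds and control arrays. The number of arrays limits the precision. Some genes are not analysed here.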

Additional observations from a re-analysis of the deposited data

How the results depend on the processing

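Of 75 alternative values over the 9 medians and counts, 56 were taken as unchanged. These did not turn sign and moved by less than 0.1 log2 or, for counts, by no more than 1.5 times. Another 17 moved more and 2 turned sign. The 56 include counts of 0 that stayed 0, which have no direction. A stricter filter could not have raised a count of 0, so the 56 overstate the stability. The siPSF against siControl median turned from -0.12 to 0.23 with untransfected LTAD as control, with 5 members higher and 5 lower. At 1.5-fold 2 of 31 members were lower with siPSF than with siControl, against 3.26% of all kept probe sets. For LTAD against LNCaP the median was -0.28 on the deposited scale, -0.57 with arrays centred on their medians and -0.23 with no filter. It was -0.31 with the siControl array, which gave 3 members higher and 2 lower. At 1.5-fold in LTAD against LNCaP 2 of 31 were higher, against 6.71% of all kept probe sets, and 12 of 31 lower, against 9.04%. For siControl against LTAD the median was -0.58 on the deposited scale, where 4 members were higher and 11 lower, 0.64 with centred arrays, with 2 lower, and 0.28 with no filter; a filter at the 75th percentile left 2 lower, against 5.16% of the probe sets it kept. The deposited scale carries the array shift given above; the cause of the other changes was not tested. With 1 array a group no replicate could be left out. No paired analysis was possible because each group held 1 array and the labels gave no replicate numbers. No background signal was used here, so levels under the filter cannot be told from background.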
